A study of Saccharomyces cerevisiae with 37 samples.

Results

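The 56 genes that encode the proteins of the small (40S) subunit of the cytosolic ribosome in budding yeast, RPS0A to RPS31, were followed across a copper time course. They were taken by symbol from the deposited count table, and all 56 were found among its 6464 genes. They form 24 pairs of duplicated genes (paralogues, named A and B) and 8 single-copy genes. All 56 passed the filter on low counts, as did 4995 genes in all.

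Messenger RNA was read from its 3' end (Lexogen QuantSeq) in 37 libraries of haploid MAT A cells of the BY4741 background. The wild type (WT, BMY1051) was compared with BMY3661, which carries a 25x array of GFA1 driven by the copper-inducible CUP1 promoter (the array strain). Each strain was sampled before copper sulfate and at 8 times after it (every 5 min up to 30 min, then 45 and 60 min), with 2 libraries per strain and time and 3 for WT at 0 min. Cells of every group had first been grown in rich medium, washed, and kept in copper-free minimal medium. All later libraries come from copper-treated cultures, so the effect of copper and that of time since the medium change cannot be told apart. The labels give 500 uM copper in the treatment note and 500 mM in the growth note, and the unit was not settled here. The labels name 1 array strain, but the count columns of its replicates carry 2 strain numbers, so whether these were separate isolates is not known. GFA1 checked the labels: it lay at 32.8 to 343 CPM (gene counts scaled to a fixed library total, with TMM normalisation) in WT at 0 min and at 1798 and 1979 CPM in the array strain at 0 min. At 25 and 30 min it reached 15394 to 21392 CPM in the array strain.

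The small subunit reads messenger RNA: it binds the initiation factors, scans to the start codon and holds the decoding centre. Its proteins are needed in equal numbers, and in yeast most are made from duplicated genes that arose in a whole-genome duplication. Ribosomal protein genes are among the most strongly transcribed genes of growing yeast; the factors Rap1, Fhl1, Ifh1 and Sfp1 switch them on in response to nutrient signals through TORC1 and protein kinase A, and stress lowers them.

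Because reads came from the 3' end, the sequence near the end of a gene decides whether a read can be given to 1 paralogue. In the R64 genome, every window of 75 bases that starts in the last 300 bases of a gene was looked up on both strands. Of the 56 genes, 40 had windows found at a single place throughout, and so had all 8 single-copy genes. Under 50% of such windows were unique for 4 genes (7.14%), against 3.94% of all 6013 protein-coding genes. Among them were RPS6A and RPS6B, with 40% of windows unique. RPS24A and RPS24B had 71.0%, RPS4A and RPS4B 73.0%, the RPS19 genes 92.7%, the RPS14 genes 94.0%, and the RPS23 genes 98.0%. The last 90 coding bases are shown for RPS6, a pair with 2 differences there, and for RPS9, whose coding lengths differ (594 and 588 bases). Bases that differ position by position, without gaps, are in capitals (R64, from RefSeq).
RPS6A, chrXVI:377291-377380, minus strand: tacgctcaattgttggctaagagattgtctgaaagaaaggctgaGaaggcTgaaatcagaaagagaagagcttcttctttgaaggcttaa
RPS6B, chrII:591712-591801, minus strand: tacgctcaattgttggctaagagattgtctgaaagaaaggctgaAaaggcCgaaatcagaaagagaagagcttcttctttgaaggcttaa
RPS9A, chrXVI:405955-406044, plus strand: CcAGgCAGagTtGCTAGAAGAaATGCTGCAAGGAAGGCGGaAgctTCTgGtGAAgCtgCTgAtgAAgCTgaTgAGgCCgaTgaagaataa
RPS9B, chrII:605419-605508, plus strand: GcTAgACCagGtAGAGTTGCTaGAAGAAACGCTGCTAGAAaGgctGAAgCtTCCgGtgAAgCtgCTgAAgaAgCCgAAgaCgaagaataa
A read from inside the RPS6 ends that misses both differing bases fits both genes. The counter has a separate entry for reads placed at several sites, with 6.17% to 13.6% of the listed reads of a library. Whether such reads were also counted for genes is not given in the sources used here. Values for RPS6 may not hold all reads from those genes. The RPS9 ends, compared base by base back from the stop codon without gaps, differed at 56 of 90 positions. With gaps allowed, the last 300 coding bases were 88.9% identical, against 99.3% for RPS6. Capitals in RPS9 can therefore mark a shift in position as well as a changed base. The reference annotation gives all 56 genes without untranslated regions, so their spans end at the stop codon. If the counting used such spans, which the sources used here do not give, reads past the stop codon fell outside genes. Reads outside genes made up 34.8% of the listed reads in the lowest library and 50.6% in the highest.

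Upstream of the coding sequence, 29 of the 56 genes had letters of a Rap1 site, a feature their choice did not use. In the 500 bases before the start codon, on both strands, a Rap1 match of the form ACCCNNACA or ATCCGTACA was found for 29 of 56 genes (51.8%), against 59.3% of the 81 large-subunit genes and 6.24% of all protein-coding genes. The forms do not overlap each other. The first form was present at 18 genes (32.1%, against 5.47%) and the second at 13 genes (23.2%, against 0.931%). The element AAAATTTT, known as RRPE from ribosome assembly genes, was found for 7.14% of the genes and 12.4% of all. A match describes letters only. For RPS6A and RPS19A, stretches with 2 Rap1 matches close together are shown, with the matches in capitals.
RPS6A, chrXVI:378809-378858, minus strand: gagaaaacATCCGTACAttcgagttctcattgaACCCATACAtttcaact
RPS19A, chrXV:93080-93130, minus strand: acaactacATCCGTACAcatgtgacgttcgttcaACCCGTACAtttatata
They end 413 and 229 bases before the start codons of RPS6A and RPS19A.

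The libraries held 305028 to 887971 gene counts, and 1 stood apart. WT 0 min replicate 1 had the fewest gene counts, 36.6% of its reads in genes (40.8% to 54.6% in the other 36 libraries), and 3.01% of its gene counts in the 56 genes (6.82% to 10.2% in the others). Against the mean of replicates 2 and 3, 51 of the 56 genes were lower in it and 5 higher. The median difference was -1.95 on the log2 scale (range -5.92 to 2.53), and 41 genes were lower by at least 1 unit. In WT replicate 1 was also lower than replicate 2 for 47 to 54 of the 56 genes at each time from 5 to 25 min. At 25 min 14 genes were at least 2-fold apart, against 0 to 6 at 5 to 20 min, with 48.6% and 51.4% of reads in genes in replicates 1 and 2. Counts of called members or pairs that moved by over 1.5 times without WT 0 min replicate 1 are given both ways. Counts from fits that left out any other library have no share of all genes beside them, and show only how calls moved. Since the labels do not give how cultures were kept apart, p-values measure the spread between these libraries. Bulk libraries give shares, so less RNA of these genes and more RNA of other genes cannot be told apart. Neither cell number nor RNA per cell was measured.

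The 56 genes took a larger share of the gene counts in the array strain than in WT at most times. In WT the share was 3.01%, 8.64% and 9.22% at 0 min. Over 5 to 20 min it ran from 7.81% to 9.29% (median 8.56%, n = 8), over 25 to 30 min from 6.82% to 8.70% (median 8.26%, n = 4), and over 45 to 60 min from 7.18% to 7.91% (median 7.51%, n = 4). In the array strain it was 9.79% and 10.2% at 0 min, 9.5% to 10.2% over 5 to 20 min (median 9.62%, n = 8), 7.47% to 8.56% over 25 to 30 min (median 8.09%, n = 4) and 8.87% to 9.64% over 45 to 60 min (median 9.61%, n = 4). The array libraries of 25 and 30 min lay below all other array libraries. The array libraries of 0 to 20 min lay above all WT libraries, and those of 45 and 60 min above the WT libraries of 25 to 60 min.

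**Figure D1:**
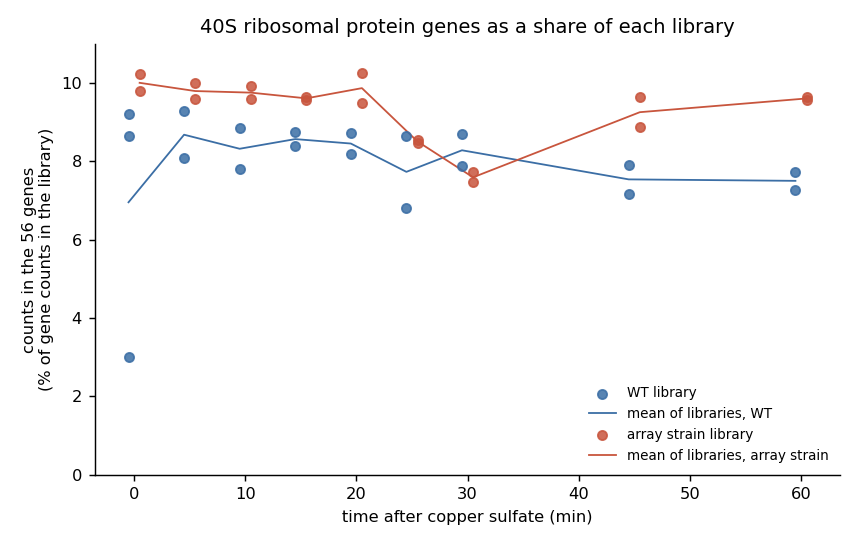
Share of gene counts in the 56 genes (percent, linear axis from 0) against time after copper sulfate (min), 1 point per library and a line through the mean of each time. WT 0 min replicate 1 is the low point at 3.01%; the array strain falls to between 7.47% and 8.56% at 25 and 30 min.

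Levels differed widely between the proteins. Counts in 3'-end data come from the end of a transcript, and levels are compared here per kilobase of coding sequence. RPS31 (YLR167W), which encodes a 40S protein fused to ubiquitin, had the highest mean at 13119 CPM per kb, and RPS12, a protein of the head of the subunit, followed with 12671. Their ranges over the libraries overlapped, as RPS31 ran from 11471 to 15629 and RPS12 from 8438 to 15981 CPM per kb without WT 0 min replicate 1. The lowest means were those of RPS20 (180 CPM per kb), RPS27A (230) and RPS28B (245), whose ranges also overlapped. In CPM without division by length the order of these 3 was reversed, at 66.0, 57.4 and 50.1. RPS20 (YHL015W), a single-copy gene for a head protein, had only 1293 counts in all 37 libraries, and all of its 3' windows were unique. Reads past its stop codon may not have been counted, and their part in this low level was not tested. Of the 56 genes, 46 were in the top 10% of all tested genes by mean CPM.

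The single-copy genes, which lose no reads to a paralogue, give the plainest view. RPS31 lay at 1587, 5971 and 5339 CPM in the WT 0 min libraries, between 5265 and 5889 CPM in the WT libraries after copper (median 5600, n = 16) and between 6055 and 7174 CPM in the array libraries after copper (median 6693, n = 16). The strains did not overlap after 0 min, and within each strain the level was nearly flat in time. The edgeR quasi-likelihood test, adjusted by the Benjamini-Hochberg method over 4995 genes, gave a log2 fold change between strains over 5 to 60 min of 0.25 ± 0.11 (SE) with adjusted p = 0.116. Without WT 0 min replicate 1, which lowers the spread used by the test, the same difference had adjusted p = 9.15e-07.

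RPS3, at the mRNA entry channel, had 1877 to 2920 CPM in WT over 5 to 20 min (median 2628), 1721 to 2879 over 25 to 30 min (median 2535) and 1783 to 2018 over 45 to 60 min (median 1913). Array libraries had 3220 to 3737 CPM over 5 to 20 min (median 3389), 1974 to 2417 over 25 to 30 min (median 2197) and 2428 to 3127 over 45 to 60 min (median 2913). The array libraries of 25 and 30 min did not overlap those of 5 to 20 min. RPS2, RPS13 and RPS15, at the mRNA entry, the platform and the head, had log2 changes between these array windows of -0.24, -0.34 and -0.36, with adjusted p of 0.384, 0.407 and 0.358 by edgeR. None of the 8 single-copy genes was called, meaning adjusted p under 0.05, in this or in the strain comparison. Without WT 0 min replicate 1, 7 of the 8 were called in each: all but RPS31 between the array windows (RPS20 higher, the others lower), and all but RPS20, each higher, between the strains. In that fit 30.2% of all genes were called between the array windows and 34.4% between the strains.

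RPS20 went the other way, at low counts (20 in its lowest library). Its array libraries had 37.9 and 48.4 CPM at 0 min, 45.8 to 68.2 over 5 to 20 min (median 54.8), 83.0 to 120 over 25 to 30 min (median 107) and 58.0 to 79.5 over 45 to 60 min (median 66.8). In WT it had 189, 36.7 and 28.5 CPM at 0 min, 33.5 to 58.9 over 5 to 20 min, 32.6 to 84.7 over 25 to 30 min and 63.4 to 125 over 45 to 60 min. It was highest where most of the other 55 genes were lowest, including WT 0 min replicate 1. Its array change from 5-20 to 25-30 min was 0.89 ± 0.32 (log2, SE), with adjusted p = 0.0635 by edgeR, and adjusted p = 0.000801 without WT 0 min replicate 1.

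**Figure D2:**
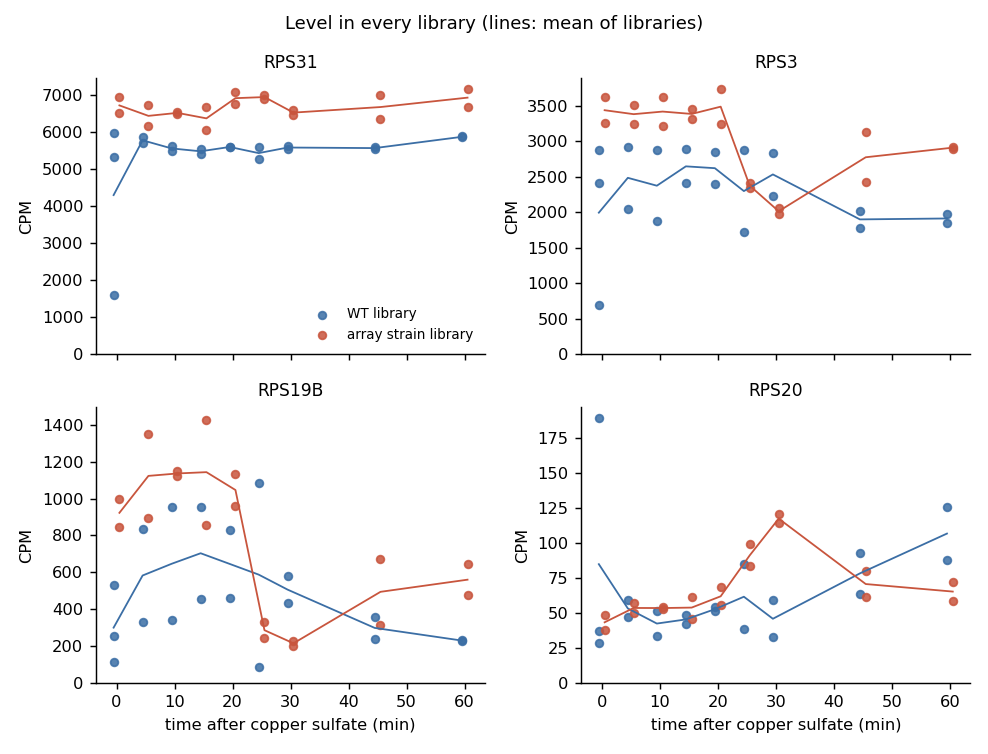
CPM (linear axes from 0) of RPS31, RPS3, RPS19B and RPS20 in every library against time after copper sulfate (min), with lines through the mean of each time. After copper RPS31 lies at 6055 CPM or above in the array strain and at 5889 or below in WT, RPS3 falls in the array strain to between 1974 and 2417 CPM at 25 and 30 min, RPS19B drops in the array strain at 25 and 30 min to between 199 and 330 CPM, and RPS20 reaches 83.0 to 120 CPM there.

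After copper the mean level of each of the 56 genes was on the higher side in the array strain, and 15 were called. Over 5 to 60 min all 56 genes had a positive log2 fold change (range 0.16 to 0.49, median 0.30, while the median of all tested genes was 0.00). Of the 56, 15 were called higher and none lower, against 12.0% of all tested genes called higher and 11.9% lower. The count was 22 with replicate number as a block, and these included all 15. Leaving out WT 0 min replicate 1 gave 46, again with all 15 among them. The block fit called 28.6% of all genes, and the fit without that library 34.4% (18.2% higher). The count became 25 without WT 25 min replicate 2, 41 without all of WT replicate 1, and 1 without all of array replicate 1 or all of array replicate 2. By groups, 23 of 56 genes had every array library above every WT library over 5 to 20 min (4.04% of all tested genes did), 6 of 56 over 25 to 30 min (10.1%) and 43 of 56 over 45 to 60 min (9.67%). These groups differ in size, and the tests of a change of the strain difference with time, given with the interactions, called none of the 56.

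The called genes belonged to several parts of the subunit. RPS21B was higher by 0.45 ± 0.12 (log2, SE, adjusted p = 0.0076, edgeR), from 580 to 1506 CPM in WT and from 822 to 2046 CPM in the array strain, so its ranges overlapped. RPS0B, whose protein is needed for 18S rRNA maturation, was higher by 0.24 ± 0.06 (0.00771), from 733 to 981 against 894 to 1146 CPM. RPS1B, at the mRNA exit, was higher by 0.29 ± 0.08 (0.00952), from 2020 to 3147 against 3047 to 3666 CPM. RPS7B, RPS25B, RPS10A, RPS10B, RPS21A, RPS23A and RPS9A were also called, with log2 fold changes of 0.23 to 0.38. With each library or replicate left out, RPS7B, RPS25B and RPS10A were called in 39 of 41 settings and RPS10B in 38, but RPS21A in 18, RPS23A in 15 and RPS9A in 8. Pairs with both paralogues called included RPS10 and RPS21. The differences of the named genes, 1.17-fold to 1.36-fold, were small, and over 5 to 60 min the ranges of the strains overlapped for all 15 genes.

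Other lists were read against the 12.0% of all genes called higher and 11.9% lower. Of 81 large-subunit protein genes, 26 were called higher in the array strain and none lower (median 0.31). Of 23 tested 40S chaperones and late assembly factors, 14 were called higher (median 0.25), led by SYO1, PNO1, TSR4 and ENP1. Of 13 initiation factors that bind the 40S subunit, TIF35, SUI3 and SUI2 were called higher and none lower. Of 14 regulators of ribosomal protein genes, 1 was called lower: DOT6, a repressor, with -0.63 ± 0.15 (log2, SE, adjusted p = 0.0027, edgeR). Of 27 tested mitochondrial small-subunit genes, MRPS28 and MRP51 were called lower. The counts for the regulators and the mitochondrial genes were below the share over all genes. Without WT 0 min replicate 1 there were 73 large-subunit genes, 18 assembly factors and 6 initiation factors called higher, against 18.2% of all genes. Genes that mark a-cells differed as well: the summed level of 6 such genes was 164 to 485 CPM in WT and 1302 to 2819 CPM in the array strain, and all 6 were called higher. Their part in the result was not tested. Of the alpha-cell genes, MF(ALPHA)1 and MF(ALPHA)2 were at 0 in 36 of 37 libraries each and STE3 in 26, while SAG1 was present at 7.40 to 48.8 CPM.

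At 0 min the strains could not be separated gene by gene. edgeR called none of the 56 genes (3.44% of all genes were called, 1.58% higher and 1.86% lower). An unadjusted p under 0.05 was found for 1124 of all 4995 genes and 24 of the 56, and DESeq2 called 1 of the 56. The median log2 fold change was 0.74, and 0.37 without WT 0 min replicate 1, when 1 gene, RPS15, was called. Of all genes, 4.52% were called in that fit. With replicate number as a block 5 genes were called higher, among them RPS0A, RPS15, RPS9A and RPS3. The block fit called 8.65% of all genes in either direction. The count was 26 without WT 0 min replicate 2, 3 without either WT 25 min library, 7 without all of WT replicate 1 and 20 without all of WT replicate 2. The smallest p-values as tested were those of RPS21A (0.69, adjusted p = 0.0589), RPS21B (0.97, 0.0699) and RPS9A (1.07, 0.0778).

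In the array strain the set was lower at 25 and 30 min than at 5 to 20 min, a comparison added after the data had been seen because 1 of the 0 min libraries of WT stood apart. Of the 56 genes, 12 were called lower and none higher, against 7.59% of all tested genes called lower and 4.70% higher. The median log2 fold change was -0.47, with 51 genes negative and 5 positive (median of all tested genes 0.02). For 35 of 56 genes every array library of 25 and 30 min was below every one of 5 to 20 min, against 11.0% of all tested genes. RPS20 was the only 1 of the 56 above in all, against 6.75% of all tested genes. The count of calls was 17 with replicate number as a block (16 lower, 1 higher) and 41 without WT 0 min replicate 1 (40 lower, 1 higher), in each case with all 12 included. Of all genes, 20.5% were called with the block and 30.2% (17% lower) without that library. Leaving out array 25 min replicate 1 gave 0 calls, leaving out array 30 min replicate 1 gave 1, 6 when replicate 2 of 30 min was left out and 7 for that of 25 min, and 0 without all of either array replicate. It rose to 42 without all of WT replicate 1.

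RPS19B (YNL302C), one of the genes for a head protein linked to 18S rRNA maturation, had 894, 1352, 1152, 1120, 858, 1429, 962 and 1132 CPM in the array libraries of 5 to 20 min. At 25 and 30 min it had 241, 330, 199 and 229 CPM, with no overlap. Its log2 fold change was -2.17 ± 0.47 (SE, 4.49-fold, adjusted p = 0.00687, edgeR). RPS21B fell from 1657 to 2046 CPM (median 1850) to 822, 1031, 823 and 905 CPM, a change of -1.05 ± 0.22 (adjusted p = 0.00628). RPS18B, at the head near the A site, fell from 307 to 434 CPM (median 360) to 160, 204, 172 and 164 CPM, a change of -1.06 ± 0.23 (0.00674). Neither gene overlapped between the windows.

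RPS10A, in the beak of the subunit, fell from 635 to 840 CPM (median 756) to 437, 449, 362 and 374 CPM (-0.90 ± 0.20, adjusted p = 0.0071, edgeR). RPS30A fell from 921 to 1185 CPM (median 986) to 539, 607, 507 and 579 CPM (-0.86 ± 0.20, 0.00995). RPS27A, at low level, fell from 68.8 to 109 CPM (median 89.8) to 28.3, 24.7, 26.7 and 37.2 CPM (-1.60 ± 0.39, 0.0134). In each of these genes the groups did not overlap. RPS26B (-1.82), whose protein lies at the mRNA exit and is loaded by Tsr2, RPS27B (-1.79), RPS19A (-1.39), RPS6A (-1.24), RPS23A (-0.55) and RPS21A (-0.52) were also called. RPS6A had 40% of its 3' windows unique, and how reads that fit RPS6B too were counted is not known.

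Genes that stayed level stood beside them. RPS22B (0.13), RPS0B (0.10) and RPS31 (0.04) had positive log2 fold changes that were not called, and RPS10B (-0.03) and RPS1A (-0.05) were near 0. The 14 genes of at most 330 coding bases had a median of -0.69 with 6 calls, the 25 genes of 360 to 471 bases -0.41 with 5 calls, and the 17 genes of 573 to 786 bases -0.40 with 1 call. Across the 56 genes the change correlated with coding length at r = 0.24 and with mean log2 CPM at r = 0.26, or r = 0.45 without RPS20. These points share their libraries, so the values describe the set only.

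**Figure D3:**
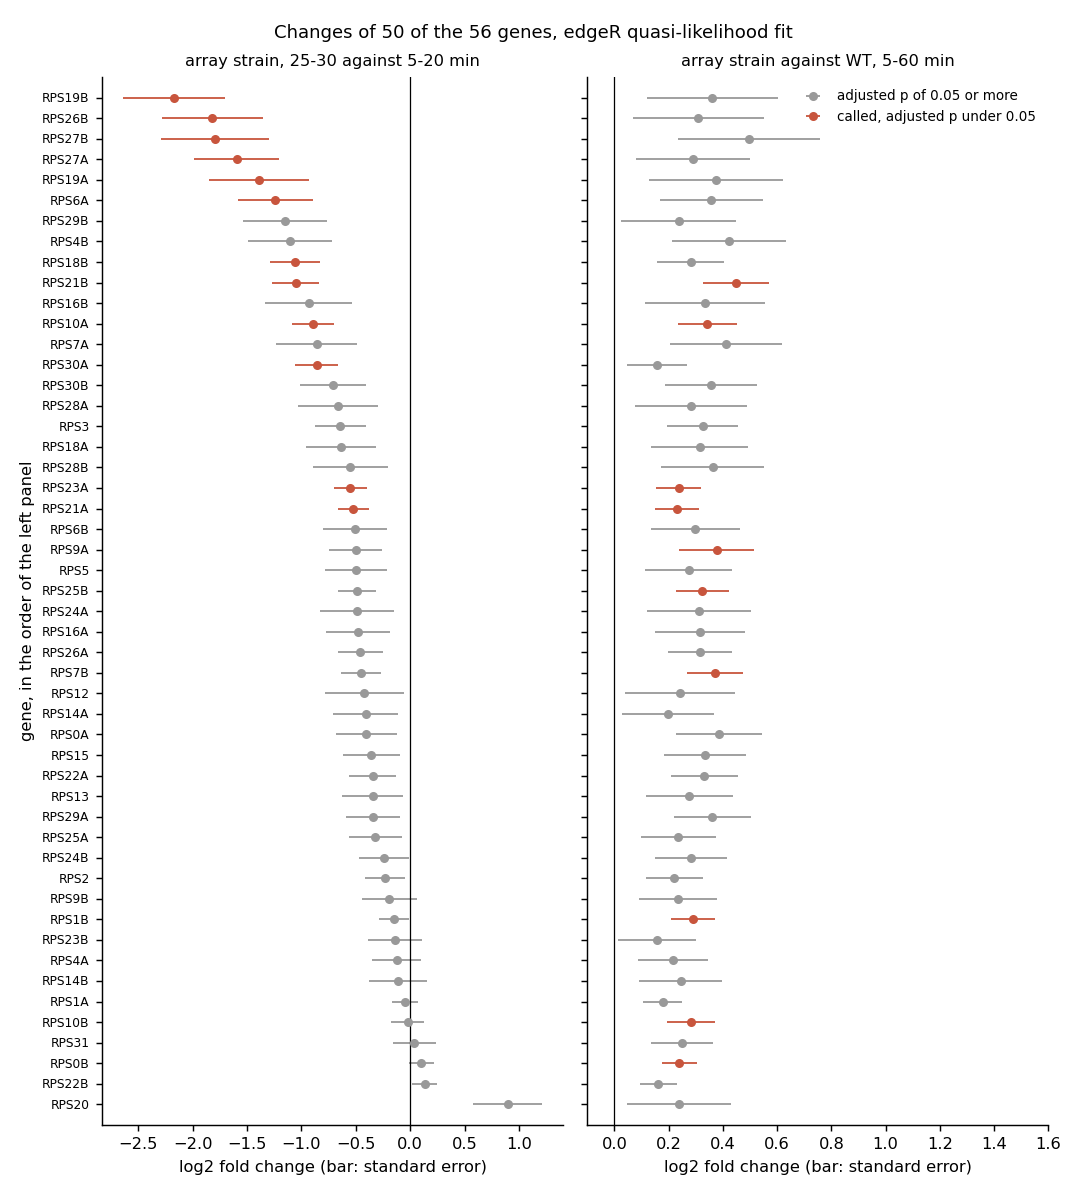
Log2 fold change with standard error for 50 of the 56 genes, array strain 25-30 against 5-20 min on the left and array strain against WT over 5-60 min on the right; orange marks adjusted p under 0.05. On the left RPS19B is lowest at -2.17 and RPS20 highest at 0.89, and on the right all points lie above 0.

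Several measures of the libraries moved with this drop, and their part in it was not tested. Reads in genes made up 40.8% to 45.3% of the array libraries of 25 and 30 min, against 47.3% to 53.4% at 5 to 20 min. Reads outside genes made up 42.1% to 45.8%, against 34.8% to 41.5%, and reads placed at several sites 12.6% to 13.4%, against 11.2% to 12.2%. GFA1 stood at its highest. Other lists were read against the 7.59% of all genes called lower and 4.70% higher: 15 of 81 large-subunit genes were called lower and none higher (median -0.45). Of the initiation factors, SUI1 (-1.62), TIF5 (-1.14) and TIF11 (-0.88) were called lower and RPG1 (0.38) higher. CRF1, which in yeast represses ribosomal protein genes with Fhl1, was the 1 of 14 regulators called higher (1.28 ± 0.41, adjusted p = 0.042, edgeR). Of 23 assembly factors DIM1 and STM1 were called lower, of 27 mitochondrial small-subunit genes MRP4, MRP2, MRP21 and MRPS18, and of the 6 a-cell markers STE2, MFA1, AGA2 and MFA2. The counts for regulators and assembly factors were near the share over all genes. When WT 0 min replicate 1 was left out there were 51 large-subunit and 10 mitochondrial genes lower, against 17.0% of all genes.

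A similar order of genes was seen where no array library entered, and measures of the libraries moved there too. Reads in genes made up 43.1% to 46.6% of the WT libraries of 45 and 60 min, against 46.8% to 51.4% at 25 and 30 min, and reads outside genes 42.5% to 46.4%, against 36.4% to 42.1%. Their part in the result was not tested. In WT, 45 to 60 against 25 to 30 min, edgeR called none of the 56 (10.4% of all genes, 6.31% higher and 4.10% lower). An unadjusted p under 0.05 was found for 1201 of all 4995 genes and 5 of the 56, and DESeq2 called 1 of the 56. The median was -0.20 with 44 genes negative. RPS30A (-0.53, adjusted p = 0.132), RPS22B (0.30, 0.157) and RPS10A (-0.49, 0.165) had the smallest p-values. Across the 56 genes this WT change correlated with the array drop at r = 0.89 (Spearman 0.86, and r = 0.88 without RPS20), against r = 0.49 over 4995 genes. Leaving out WT 0 min replicate 1 gave 7 calls: RPS20 and RPS22B higher, and RPS28A, RPS29B, RPS9A, RPS30A and RPS15 lower. In that fit 9.77% of all genes were called higher and 9.85% lower, so the 56 genes were not called more often. There were 4 calls, all lower, without WT 25 min replicate 1, and 22 without all of WT replicate 1. Between 5-20 and 25-30 min in WT, edgeR called none (0.521% of all genes, 0.460% higher and 0.0601% lower), and DESeq2 0. There 344 of all 4995 genes and 0 members had an unadjusted p under 0.05. That median was -0.11, and 1 gene was called lower without WT 25 min replicate 2.

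**Figure D4:**
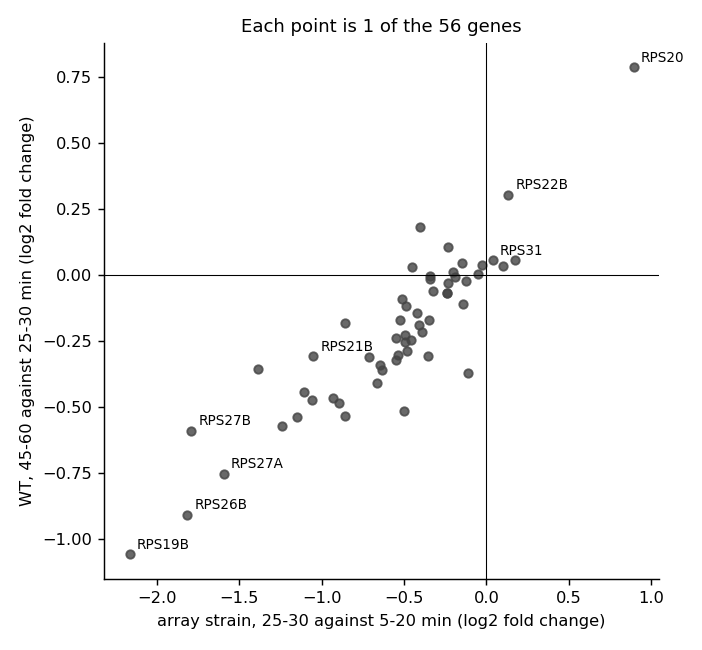
Log2 fold change of each of the 56 genes in the array strain, 25-30 against 5-20 min (x axis), and in WT, 45-60 against 25-30 min (y axis), which share no library. RPS19B, RPS26B and RPS27A lie at the low end of both axes and RPS20 at the high end, r = 0.89.

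The same order of genes also separated replicates of 1 strain and time. The difference between WT replicates 1 and 2 correlated with the array drop across the 56 genes at r = 0.92 at 10 min, 0.86 at 25 min and 0.78 at 5 min. At 15 and 20 min r was 0.72, at 0 min 0.37, at 60 min -0.02, and at 30 and 45 min it was negative, -0.60 and -0.75. Over 4995 genes the same values ran from -0.34 to 0.66. At 25 min in WT, RPS19B had 88.4 and 1086 CPM, RPS27B 118 and 1461 CPM, and RPS26B 44.2 and 390 CPM in replicates 1 and 2, while RPS20 had 84.7 and 38.2 CPM. Differences of this size between libraries of 1 group, in the same genes and directions as the array drop, stand beside every result on those genes.

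Against 0 min the WT changes could not be fixed in sign. The medians of the 56 genes were 0.36 at 10 to 20 min, 0.23 at 25 to 30 min and 0.00 at 45 to 60 min. When WT 0 min replicate 1 was left out they were -0.03, -0.13 and -0.32. edgeR called none of the 56 in any of these windows, where 13.6%, 10.2% and 1.58% of all genes were called: 5.31%, 4.28% and 1.16% higher, and 8.29%, 5.93% and 0.420% lower. At an unadjusted p under 0.05 there were 5, 2 and 0 of the 56, against 1487, 1159 and 628 of all 4995 genes. DESeq2 called 0 of the 56 in each. Leaving that library out gave 5 calls at 10 to 20 min (1 higher, 4 lower), 6 at 25 to 30 min (all lower) and 19 at 45 to 60 min (1 higher, 18 lower). In that fit 15.1%, 15% and 16.6% of all genes were called (8.16%, 7.44% and 8.28% lower). Leaving out WT 0 min replicate 2 gave 15, 5 and 1, all higher, and leaving out all of WT replicate 1 gave 8, 8 and 23. At 10 to 20 min there were 2 calls without WT 0 min replicate 3, and 1 without either WT 25 min library or all of WT replicate 2. At 25 to 30 min there was 1 without WT 25 min replicate 1. In the fit that left out WT 0 min replicate 1, RPS29A, a zinc-binding protein of the head, had the smallest p of the 56 in each window (-0.63, -0.68 and -0.69), whereas with it the values were -0.17, -0.21 and -0.23 and were not called. With replicate number as a block 3 genes were called at 10 to 20 min: RPS15 (1.09) higher, RPS0B (-0.42) and RPS20 (-1.11) lower. The block fit called 18.6% of all genes there, so the 56 genes were called less often. The sign for RPS20 turned without WT 0 min replicate 1, to 0.54 (not called, no block). The genes of smallest p as tested were RPS21A (0.43, adjusted p = 0.0831), RPS27B (1.37, 0.0997) and RPS15 (0.74, 0.108) at 10 to 20 min. At 25 to 30 min they were RPS9A (0.73, 0.137), RPS15 (0.70, 0.195) and RPS27B (1.18, 0.227), and at 45 to 60 min RPS31 (0.41, 0.527), RPS0B (-0.22, 0.563) and RPS7B (0.33, 0.635).

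Factors that build the 40S subunit were called in WT in the same comparisons; whether they differed from the protein genes was not tested. Of 23 tested chaperones and late assembly factors, 14 were called lower at 10 to 20 min (8.29% of all genes) and 12 at 25 to 30 min (5.93%) against 0 min. At 45 to 60 against 25 to 30 min 14 were called higher (6.31%). These counts were 12, 13 and 16 (with 1 lower in the last) when WT 0 min replicate 1 was left out, against 8.16%, 7.44% and 9.77% of all genes. LTV1, a 40S assembly factor, had the smallest p each time with log2 fold changes of -1.23, -1.53 and 1.62, or -1.03, -1.33 and 1.62 with that library left out. IFH1, an activator of ribosomal protein genes, was called lower at 10 to 20 min (-0.77 ± 0.16, adjusted p = 0.00253, edgeR) and FHL1, which recruits it, also (-0.87 ± 0.26, 0.0256). In the fit without WT 0 min replicate 1, IFH1 stayed called (-0.59, 0.0127) and FHL1 did not (-0.31, 0.348). IFH1 was called higher at 45 to 60 against 25 to 30 min (0.60 ± 0.17, 0.0183).

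In the array strain against its own 0 min libraries, edgeR called none of the 56 genes at 10 to 20 min (0.0601% of all genes, 0.0200% lower and the rest higher, 0 members at an unadjusted p under 0.05, DESeq2 0). It called none at 25 to 30 min (2.14% of all, 1.02% higher and 1.12% lower, 16 members at an unadjusted p under 0.05, DESeq2 4 lower) and none at 45 to 60 min (0.180% of all, 0.120% higher, 0 at an unadjusted p under 0.05, DESeq2 0). Of all 4995 genes, 373, 1080 and 310 had an unadjusted p under 0.05 in these windows. The medians of the 56 genes were -0.02, -0.48 and -0.19. At 25 to 30 min the smallest p-values were those of RPS10A (-0.91, adjusted p = 0.0584), RPS21B (-0.97, 0.0685) and RPS30A (-0.88, 0.0694). With replicate number as a block 7 genes were called lower there: RPS10A, RPS19B, RPS21B, RPS18B, RPS30A, RPS26B and RPS21A. The block fit called 6.99% of all genes in either direction. There were 31 calls without WT 0 min replicate 1 (30 lower, RPS20 higher, against 17.5% of all genes), 5 without replicate 2 and 1 without replicate 3. There were 5 and 6 without WT 25 min replicates 1 and 2, and 36 and 8 without all of WT replicate 1 or 2. From 25-30 to 45-60 min none was called (0.601% of all, 0.400% higher and 0.200% lower, DESeq2 0), with a median of 0.34 and 51 genes positive. An unadjusted p under 0.05 was found for 8 of the 56 and 740 of all 4995 genes. For 20 of 56 genes, against 8.63% of all, the later array libraries were all higher, and for RPS20, against 8.03%, all lower. RPS18B (0.72, adjusted p = 0.195), RPS23A (0.44, 0.228) and RPS10A (0.55, 0.241) had the smallest p-values. Leaving out WT 0 min replicate 1 gave 9 genes called higher, led by RPS29B (0.81), against 3.12% of all genes.

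Whether the strains differed in their course was tested as an interaction, the array change minus the WT change. edgeR called none of the 56 genes for 25-30 against 0 min (0.140% of all genes, 18 members at an unadjusted p under 0.05, DESeq2 9 lower). It called none for 45-60 against 25-30 min (0.00% of all, 15 members, DESeq2 5 higher) and none for 25-30 against 5-20 min (0.00% of all, 11 members, DESeq2 0). Among all 4995 genes, 1261, 1026 and 588 had an unadjusted p under 0.05 in these 3 tests. The medians of the 56 genes were -0.77, 0.52 and -0.32. RPS19B had the smallest p for 25-30 against 0 min, with -2.75 ± 0.79 (SE, adjusted p = 0.071, edgeR), followed by RPS10A (-1.09, 0.0819) and RPS27B (-2.66, 0.0825). For 45-60 against 25-30 min RPS30A (1.09, 0.0943), RPS10A (1.03, 0.098) and RPS18B (1.19, 0.101) had the smallest p-values. With replicate number as a block the first of these comparisons gave 11 calls and the second 3, RPS18B, RPS30A and RPS10A. The block fit called 15.3% of all genes in the first and 3.3% in the second. Of all genes, 14.5% were called in the second without WT 0 min replicate 1. Leaving out replicate 2 or 3 of WT 0 min gave 23 or 2 calls in the first, leaving out WT 25 min replicate 1 gave 13, and leaving out all of WT replicate 1 or 2 gave 19 or 5. For the second, the count was 25 when WT 0 min replicate 1 was left out, 9 for WT 25 min replicate 1 and 29 for all of WT replicate 1. For 25-30 against 5-20 min there were 5 without WT 25 min replicate 1 and 6 without all of WT replicate 1.

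Paralogues differed in level. Within each library the ratio of A to B counts was taken as log2((A + 0.5)/(B + 0.5)), a ratio of the reads counted for each gene. It needs no library size. Of the 24 pairs, 22 had equal coding length. A was higher in all 37 libraries for 8 pairs and B for 4, and 12 changed side, or 5 without WT 0 min replicate 1. That library was the lowest or the highest in 17 pairs. The largest gaps were those of RPS28, where A was 32.8-fold above B (mean log2 ratio 5.04 ± 0.44 SD, n = 37), RPS9 (B 13.8-fold above A), RPS27 (B 13.6-fold) and RPS26 (A 10.8-fold). RPS28B, which in yeast limits its own mRNA by promoting its decay with Edc3, averaged 50.1 CPM against 1605 CPM for RPS28A. The part of that decay in the gap was not tested. Nor was that of reads past the stop codon, which may not have been counted. Among the most even pairs were RPS16 (1.17-fold), RPS6 (1.23-fold) and RPS0 (1.36-fold). For RPS28, RPS9, RPS27 and RPS26 100% of the 3' windows were unique, against 40% for RPS6. Whether shared sequence had a part in the gaps was not tested.

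**Figure D5:**
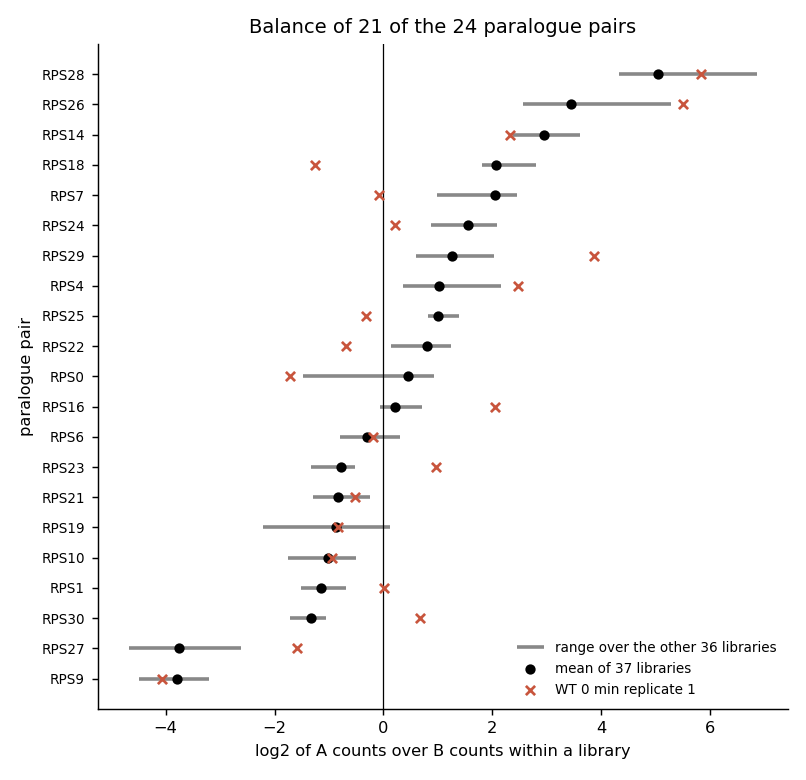
Log2 of A over B counts for 21 of the 24 pairs: black points are means of 37 libraries, grey bars the range over the other 36 libraries, and crosses WT 0 min replicate 1. RPS28 and RPS26 lie far to the A side, RPS27 and RPS9 to the B side, and the crosses lie outside the bars for 15 of the 21 pairs.

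Some pairs were called for a change of balance with time. In the array strain at 25-30 against 5-20 min, limma's moderated test called 8 of the 24 pairs, against 29.0% of all 62 A and B pairs in the table. Of the other 38 pairs, most of them large-subunit protein genes, 10 were called, a share near that of the RPS pairs. RPS10 turned toward B (-0.87 ± 0.18, log2, SE, adjusted p = 0.0064) and RPS6 too (-0.73 ± 0.17, 0.00797). RPS19 turned toward A (0.77 ± 0.19, 0.00843), as did RPS4 (0.98 ± 0.26, 0.0134). RPS26, RPS21 and RPS29 also turned toward A. The RPS10 ratio lay between -0.89 and -0.51 in the 8 array libraries of 5 to 20 min, and was -1.54, -1.31, -1.75 and -1.53 at 25 and 30 min, with no overlap. RPS10A fell while RPS10B, its paralogue, had a change of -0.03 that was not called. The count was 2 without array 25 min or 30 min replicate 1, 0 without all of either array replicate, 13 without WT 0 min replicate 1 and 15 without all of WT replicate 1.

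In WT at 10-20 against 0 min, limma called 5 of 24 pairs, against 11.3% of the 62 and 2 of the other 38. Among the 5 were RPS29 (-1.58), RPS16 (-0.89) and RPS27 (-1.17) toward B, and RPS22 (0.74) toward A. The RPS29 ratio was 3.87, 1.23 and 2.03 at 0 min and 0.60 to 1.08 at 10 to 20 min. The count was 2 without WT 0 min replicate 1, 10 without replicate 2 and 13 without replicate 3 of that group, 14 without all of WT replicate 1, and 1 without replicate 2 of 10, 15 or 20 min. There were 0 without all of either array replicate or with only the libraries compared, and 16 with replicate number as a block. Against 0 min none was called at 25-30 or 45-60 min (0.00% of the 62 in each), or 10 and 8 with replicate number as a block. An unadjusted p under 0.05 was found for 9 and 8 RPS pairs, of 13 and 12 among the 62. Without WT 0 min replicates 1, 2 or 3 there were 3, 7 or 9 calls at 25-30 min and 1, 6 or 6 at 45-60 min. The former also became 2 without WT 25 min replicate 1, 1 without either WT 45 min library and 3 without all of WT replicate 2, and the latter 1 without all of WT replicate 1. At 45-60 against 25-30 min in WT, RPS19 alone was called (0.94 ± 0.22, adjusted p = 0.0187, limma, 1.61% of the 62). Its WT ratio was -2.21, -1.02, -1.09 and -0.79 at 25 and 30 min and -0.49, -0.33, 0.12 and -0.66 at 45 and 60 min. Leaving out WT 0 min replicate 1 or all of WT replicate 1 gave 3 calls, and leaving out WT 45 min replicate 1 gave 2. None was called when any of these was left out: WT 30 min replicate 1, WT 45 min replicate 2, WT 60 min replicate 1, or all of either array replicate, nor with only the libraries compared. No pair was called between strains at 0 min or over 5 to 60 min (0.00% of the 62 in each), or 13 at 0 min with replicate number as a block. An unadjusted p under 0.05 was found for 8 and 2 RPS pairs, of 16 and 6 among the 62. At 0 min 8 were called without WT 0 min replicate 2, 12 without replicate 3 and 9 without all of WT replicate 2. Over 5 to 60 min there was 1 without WT 25 min replicate 2 and 2 without all of WT replicate 2. No pair was called in the array strain against 0 min at 10-20, 25-30 or 45-60 min, nor from 25-30 to 45-60 min (0.00% of the 62 in each). An unadjusted p under 0.05 was found for 0, 5, 0 and 1 RPS pairs, of 0, 9, 1 and 3 among the 62. At 25-30 min, however, 7 were called when WT 0 min replicate 1 was left out, 12 and 1 without all of WT replicate 1 or 2, and 11 with only the libraries compared. From 25-30 to 45-60 min 3 were called without all of WT replicate 1 and 1 with only the libraries compared.

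The difference between strains in the course of a pair's balance was tested in the same way. limma called RPS19 and RPS9 for 45-60 against 25-30 min (3.23% of the 62 pairs) and RPS19 for 25-30 against 5-20 min (1.61%), with values given among the results for a closer look. The first count was 8 without WT 0 min replicate 1, 6 when replicate 1 of WT 25 min was left out, 14 without all of WT replicate 1 and 0 in 10 of 41 settings that left out a library or replicate. It was also 0 with only the libraries compared, and 3 with replicate number as a block. The second was 0 with replicate number as a block and in 26 of 41 such settings, and 7 without WT 25 min replicate 1. For 25-30 against 0 min 10 RPS pairs, of 16 among the 62, had an unadjusted p under 0.05. None was called, or 7 with replicate number as a block. That count was 4 and 10 without WT 0 min replicates 1 and 2, 10 and 1 without WT 25 min replicates 1 and 2, and 11 and 6 without all of WT replicate 1 or 2. It was 3 without WT 30 min replicate 2 or any 1 of the WT 45 and 60 min libraries. Between 5-20 and 25-30 min in WT none was called either, with 1 pair at an unadjusted p under 0.05, and 1 was called without all of WT replicate 2.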

How the data were processed

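Per the labels, RNA was sequenced from the 3' end with the Lexogen QuantSeq kit. The authors deposited raw whole-number read counts per gene, 1 column per library. Tools named in the submitters' processing notes are STAR 2.7.10a, HTSeq 2.0.2, SAMtools 1.10 and FastQC 0.11.9, with build R64. Read length, strand setting, annotation and the treatment of reads at several places are not given in the sources used here; the counter's 5 summary entries were kept out of library sizes. No molecular identifiers are named, so counting precision is that of reads.

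The model was edgeR's quasi-likelihood F test (edgeR 4.0.16, R 4.3.3) over 18 groups with TMM normalisation. filterByExpr, set to 10 counts, kept 4995 genes; 19 residual degrees of freedom remained and the biological coefficient of variation was 19.6%. A window is the mean of its group coefficients with equal weight. Ratios of 62 A and B pairs were tested with limma 3.58.1 (pseudocount 0.5). Calls needed a Benjamini-Hochberg adjusted p under 0.05, which limma and edgeR gave per comparison. Members, lists and tests were chosen with earlier results of these data known, and named genes were those of smallest p in each comparison, the 8 single-copy genes and the most and least even pairs.

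Gene totals were 305028 to 887971 per library, and 3 counts corresponded to 9.84 CPM in the smallest, before TMM scaling. Replicate libraries were not copies of each other: their chi-square statistic divided by its degrees of freedom lay between 1.40 and 38.0. The growth note may be read as cultures followed through the course, but the labels do not tie replicate numbers to cultures. The model had no culture term, and a block by replicate number was an alternative. Over all genes tested the difference between replicates 1 and 2 correlated between times with a median r of 0.09 for WT and 0.07 for array libraries (36 pairs of times each). Among the 56 genes WT replicates of equal number deviated together at some times: replicate 1 was lower than replicate 2 for 47 to 54 genes at each time from 0 to 25 min, but for 5 at 30 min and 11 at 45 min. DESeq2 1.42.0, its size factors, scaling to other genes, no filter, a block, other pseudocounts, only the libraries compared, and each library or replicate left out were alternatives. The steps were tested on simulated data. Some of the 56 genes are counted in the totals but are not reported here by name.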

Additional observations from a re-analysis of the deposited data

Results flagged for a closer look

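The A to B balance of RPS19 was called for a different change in the 2 strains, but the calls depended on the fit. From 5-20 to 25-30 min the array change exceeded the WT change by 1.07 (log2, SE 0.27, adjusted p = 0.0386, limma interaction). From 25-30 to 45-60 min it was lower by a value of -1.22 (SE 0.31, adjusted p = 0.0288). In the array strain the ratio was -1.24 to -1.02 at 5 to 20 min and -0.68, -0.40, 0.05 and -0.50 at 25 and 30 min. WT 25 min replicate 1, with -2.21, lay far from its replicate, with -1.02. Over the settings that left out a library or replicate, the first difference ran from 0.51 to 1.64 and was called in 14 of 41, and the second ran from -1.75 to -0.69 and was called in 30 of 41. The first call was lost with replicate number as a block (adjusted p = 0.0603, limma) and with only the libraries compared (0.0505). The second kept an adjusted p of 0.0286 with the block and was lost with only the libraries compared (0.0901). RPS19 was not tested when 50 counts were required of both genes in every library, since RPS19A had as few as 10.

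The RPS9 balance moved toward A in the array strain relative to WT from 25-30 to 45-60 min, by 0.90 (SE 0.23, adjusted p = 0.0288, limma interaction). WT ratios were -3.59, -3.66, -3.20 and -3.65 and then -3.48, -4.35, -3.90 and -4.49, and array ratios -3.89, -4.01, -3.95 and -3.84 and then -3.55, -3.58, -3.58 and -3.53. The difference ran from 0.66 to 1.13 and was called in 29 of 41 settings that left out a library or replicate. Its adjusted p by limma was 0.0207 with the block, 0.0901 with only the libraries compared and 0.057 with a pseudocount of 5. All groups held 2 or 3 libraries, so single libraries were not tested as outliers.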

How the results depend on the processing

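WT 0 min replicate 1 and the small groups limit these results: counts of calls moved with single libraries, and the causes were not tested. Among the alternative fits, the share of all genes called was taken only without WT 0 min replicate 1 and with the block. For array 25-30 against 5-20 min it rose there from 12.3% to 30.2% and 20.5%. Counts of the 56 genes from the other alternative fits have no such share beside them and do not single out these genes. Medians of the 56 genes held their sign for array against WT over 5 to 60 min (0.22 to 0.40) and array 25-30 against 5-20 min (-0.48 to -0.37). They ranged from -0.03 to 0.68, -0.13 to 0.56 and -0.36 to 0.35 for WT 10-20, 25-30 and 45-60 against 0 min, from 0.34 to 1.07 for the strains at 0 min and from -1.14 to -0.35 for the interaction of 25-30 against 0. No gene or pair called as reported reversed. RPS20 at WT 10-20 against 0 min, which was not called, turned sign without WT 0 min replicate 1 (-0.66 to 0.54).

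With each library or replicate left out in turn, the lowest and highest counts of the 56 genes called were 0 and 15 (WT 10-20 against 0 min), 0 and 8 (WT 25-30), 0 and 23 (WT 45-60), 0 and 22 (WT 45-60 against 25-30), 0 and 36 (array 25-30 against 0), 0 and 28 (array 45-60 against 25-30), 0 and 26 (strains at 0 min), 1 and 46 (strains over 5-60), 0 and 1 (WT 25-30 against 5-20) and 0 and 42 (array 25-30 against 5-20). They were 0 throughout for array 10-20 and 45-60 against 0 min. For the interactions they were 0 and 23 (25-30 against 0), 0 and 29 (45-60 against 25-30) and 0 and 6 (25-30 against 5-20). For the 24 pairs, in the same order, they were 0 and 14, 0 and 9, 0 and 6, 0 and 3, 0 and 12, 0 and 3, 0 and 12, 0 and 2, 0 and 1, and 0 and 15, and for the interactions 0 and 11, 0 and 14, and 0 and 7.

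DESeq2 called 1 gene for WT 45-60 against 25-30, 4 for array 25-30 against 0, 1 for the strains at 0 min, and 9 and 5 for the interactions of 25-30 against 0 and 45-60 against 25-30. With only the libraries compared, genes called were 44 (array 25-30 against 0), 2 (array 45-60 against 0), 35 (array 45-60 against 25-30), 47 (strains over 5-60), 19 (interaction 45-60 against 25-30) and 44 (array 25-30 against 5-20). Pairs called were then 0 (WT 10-20), 0 (WT 45-60 against 25-30), 11 (array 25-30 against 0), 1 (array 45-60 against 25-30), 0 (interaction 45-60 against 25-30) and 16 (array 25-30 against 5-20). Requiring 50 counts in every library gave 2, 0, 0, 3 and 0 pairs for WT 10-20 against 0, WT 45-60 against 25-30, the interaction of the latter, array 25-30 against 5-20 and its interaction; RPS19 and RPS9 were then not tested. A pseudocount of 5 gave 2 and 1 pairs for the interactions of 25-30 against 0 and 45-60 against 25-30.

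With replicate number as a block, genes called were 3 (WT 10-20), 7 (array 25-30 against 0), 5 (strains at 0 min), 11 (interaction 25-30 against 0) and 3 (interaction 45-60 against 25-30). The shares of all genes called, in the same order, were 18.6%, 6.99%, 8.65%, 15.3% and 3.3%. Pairs called were 16 (WT 10-20), 10 (WT 25-30), 8 (WT 45-60), 13 (strains at 0 min), 7 (interaction 25-30 against 0) and 0 (interaction 25-30 against 5-20). For every other comparison the block left the count within 1.5 times.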
